A study of Mus musculus with 12 samples.

Results

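Gene deserts are long stretches of a chromosome without protein-coding genes. The regions described here were 1769 stretches of open chromatin in such deserts, taken from 56682 merged peaks of the mouse genome (build mm10). Peaks of 12 libraries that shared at least 1 bp were merged on chromosomes 1 to 19 and X. A merged region was kept when it lay on chromosomes 2 to 19, was below 2500 bp long and had a peak in at least 2 libraries. It also had to lie more than 100 kb from the span of every annotated protein-coding gene. The position, length and number of libraries were used for this choice, and the differences between groups were not. The 31246 other regions of the same chromosomes, below the same length and found in at least 2 libraries, served as the comparison. A further 1477 narrow regions lay as far from genes but had a peak in only 1 library, and 1 region was left out for its length.

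Open chromatin was measured by ATAC-seq, in which a transposase cuts accessible DNA and adds sequencing adapters to it. The cells were mouse HoxB8 cells, bone marrow progenitors immortalised by the homeobox factor Hoxb8, in every library 48 h after the removal of estrogen. The groups were sgB2/T618I, sgNT/T618I, sgB2/Empty and sgNT/Empty, with 3 libraries each: sgB2 is a guide against Asxl1, which encodes a Polycomb-associated chromatin protein, and sgNT is a non-targeting guide. T618I cells carried the pMICH vector with CSF3R-T618I, a mutant of the granulocyte colony-stimulating factor receptor, and Empty cells carried the same vector without it. Whether replicates were separate cultures or clones is not stated in the labels, so p-values measure only the spread between these libraries.

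Deserts are known to hold enhancers that act on genes far away along the folded chromosome, often on genes for transcription factors with tissue-specific patterns. They also hold genes for long noncoding RNAs (lncRNAs), and in mouse the variable segments of the antigen receptor loci, which are not counted as protein-coding genes in the annotation used. Open chromatin at a distal site marks bound regulatory proteins but does not name the gene it acts on, so the flanking genes below give the position of a region and not its target.

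The deposited lists held 18484 to 32975 peaks, and the shortest was that of sgNT/Empty replicate 1. The covered length of a list ran between 9.23 and 17.9 Mb. No reads were used, so sequencing depth was unknown. Of 9 granulocyte and myeloid progenitor marker genes, 6 had a peak in all 12 libraries, Prtn3 and Cybb in 10 and Elane in only 1. The strongest region of Spi1, which encodes the myeloid factor PU.1, had a mean percentile of 82.6, that of Csf3r 61.3 and that of Mpo 54.95. The erythroid marker Klf1 reached 82.5 and the megakaryocyte marker Itga2b 76.4, so a high rank was not particular to myeloid markers. Of 5 T lymphoid markers, 4 (Cd3e, Cd3g, Cd8a and Cd4) had no peak in any library, as had the B lymphoid marker Ms4a1 and the globin genes Hbb-bt and Hba-a1. Peaks in all 12 libraries were also found at the B lymphoid marker Cd79a and at 1 of 6 erythroid (Klf1), 1 of 3 megakaryocyte (Itga2b), 2 of 4 fibroblast (Col1a1 and Pdgfrb), 1 of 3 endothelial (Pecam1) and 1 of 3 epithelial markers (Cdh1).

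Among the desert regions, 44 held an annotated start of a noncoding gene, with 45 such genes in all. RefSeq windows of 300 bases around the start (250 before and 50 after it, build GRCm38.p6, which has the coordinates of mm10) were found for all 45. The 4 windows below are shown because they span the range of behaviour described later: a start open in every group but sgB2/Empty (Gm31568), a start open only with the non-targeting guide (Gm38397), the start with the highest rank (Gm45805), and the start of a lncRNA named for its role in myeloid cells (Morrbid). Each is printed 5′ to 3′ on the strand of the gene. Capitals mark matches on either strand to GGAAGT (the ETS core), TGANTCA (AP-1), TTGCNNAA (C/EBP), TTCNNNGAA (STAT) or TGTGGT (RUNX).
Gm31568 (chr19:35151663-35151962, plus strand): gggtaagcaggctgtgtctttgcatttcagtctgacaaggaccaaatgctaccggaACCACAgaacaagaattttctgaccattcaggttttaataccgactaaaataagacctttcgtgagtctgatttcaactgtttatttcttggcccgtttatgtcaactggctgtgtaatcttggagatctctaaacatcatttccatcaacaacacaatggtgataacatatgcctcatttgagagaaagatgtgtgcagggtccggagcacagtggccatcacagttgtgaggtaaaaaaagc
Gm38397 (chr13:110903249-110903548, plus strand): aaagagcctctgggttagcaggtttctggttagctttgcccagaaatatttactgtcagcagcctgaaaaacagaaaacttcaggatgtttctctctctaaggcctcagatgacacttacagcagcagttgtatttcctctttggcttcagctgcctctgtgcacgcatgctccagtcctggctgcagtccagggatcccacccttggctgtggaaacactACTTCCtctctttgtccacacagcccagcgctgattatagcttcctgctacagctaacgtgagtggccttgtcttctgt
Gm45805 (chr8:126758304-126758603, minus strand): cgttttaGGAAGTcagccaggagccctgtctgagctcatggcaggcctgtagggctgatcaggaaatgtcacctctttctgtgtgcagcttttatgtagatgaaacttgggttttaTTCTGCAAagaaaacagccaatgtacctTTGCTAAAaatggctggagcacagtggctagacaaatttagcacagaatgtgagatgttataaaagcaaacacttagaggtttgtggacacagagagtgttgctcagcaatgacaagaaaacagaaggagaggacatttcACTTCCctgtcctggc
Morrbid (chr2:128429302-128429601, minus strand): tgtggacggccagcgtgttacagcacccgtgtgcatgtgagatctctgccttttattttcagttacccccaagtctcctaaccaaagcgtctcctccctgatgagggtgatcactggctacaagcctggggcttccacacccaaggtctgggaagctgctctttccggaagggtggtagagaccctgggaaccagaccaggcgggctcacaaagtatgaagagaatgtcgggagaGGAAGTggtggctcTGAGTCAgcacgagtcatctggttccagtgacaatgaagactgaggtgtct
The Gm31568 window held 1 RUNX match and the Gm38397 window 1 ETS match. The Gm45805 window held 2 ETS and 2 C/EBP matches, and the Morrbid window held 1 ETS and 1 AP-1 match. No capitals of different motifs overlapped in these windows, and none of the 4 held the STAT letters. Over the 48 start windows that lie in desert regions, the ETS letters were found in 39.6%, against 23.8% of all 32817 windows in the table. For RUNX the shares were 39.6% and 16.8%, for C/EBP 14.6% and 10.8%, for STAT 12.5% and 8.29%, and for AP-1 10.4% and 7.81%. The 2 sets are unlike: the 48 are starts of noncoding genes chosen for lying in a region with a peak. The 32817 were taken without regard to peaks or gene type. Some of the 48 windows overlap, being starts of the same gene. A match describes letters only and does not show binding.

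Desert regions were found in fewer libraries than the other regions and ranked lower within each list. A peak in all 12 libraries was found for 282 desert regions (15.9%), against 37.8% of the other regions, and 382 desert regions (21.6%) were at the lower limit of 2 libraries, against 13.8% of the others. Desert regions had a median length of 482 bp, against 637 bp, with a range of 175 to 2224 bp. Per library, 31.5 to 68.7% of the desert regions and 49.4 to 79.0% of the other regions had a peak. The percentage was lower for desert regions in 12 of 12 libraries, and the difference was −15.3 ± 2.53 percentage points (SD, n = 12; exact sign-flip permutation test over libraries, two-sided p = 0.000488, which is the smallest this test can give).

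Rank was the percentile of a peak in its own list by the deposited −log10 q, with the strongest peak at 100. The median percentile of desert peaks lay between 35.4 and 43.1 in the 12 libraries, and that of other peaks between 53.1 and 57.2. The sets did not overlap, and the difference was −14.9 ± 1.94 percentile points (SD, n = 12, same exact test, p = 0.000488). Of the 31246 other regions, 21541 lay inside a gene span. The mean percentile of a region, over the libraries with its peak, had a median of 43.4 there and 29.1 in deserts. It was 31.6 up to 10 kb from a gene and 31.3 at 10 to 100 kb, close to the desert value.

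**Figure D1:**
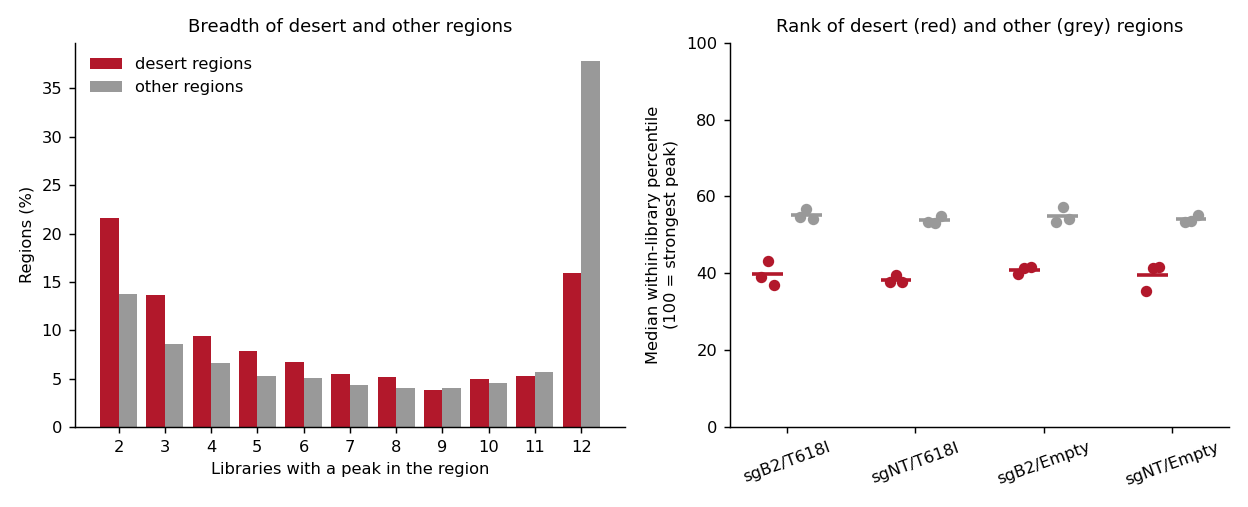
Left: percentage of desert (red) and other (grey) regions by the number of libraries with a peak. Right: median within-library percentile of desert and other regions for each library (points) with the mean of 3 libraries (bar), by group; desert medians lie between 35.4 and 43.1 and other medians between 53.1 and 57.2.

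Breadth fell off with distance from genes. A peak in all 12 libraries was found for 45.5% of the 21541 regions inside a gene span, 21.7% of those up to 10 kb away and 20% of those 10 to 100 kb away. Inside the deserts the share was 18.6% of 904 regions at 100 to 200 kb, 13.5% of 561 at 200 to 500 kb, 13.1% of 221 at 500 kb to 1 Mb and 10.8% of 83 beyond 1 Mb. The largest step was at the edge of the gene. Just inside the limit of 100 kb, at 100 to 110 kb, 19.7% of 137 regions were in all 12 libraries, with a median of 6 libraries and a median percentile of 32.7. Just outside it, at 90 to 100 kb, the share was 13.7% of 175 regions, with a median of 5 libraries and a median percentile of 29.9, so breadth was not lower just inside the limit than just outside it.

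**Figure D2:**
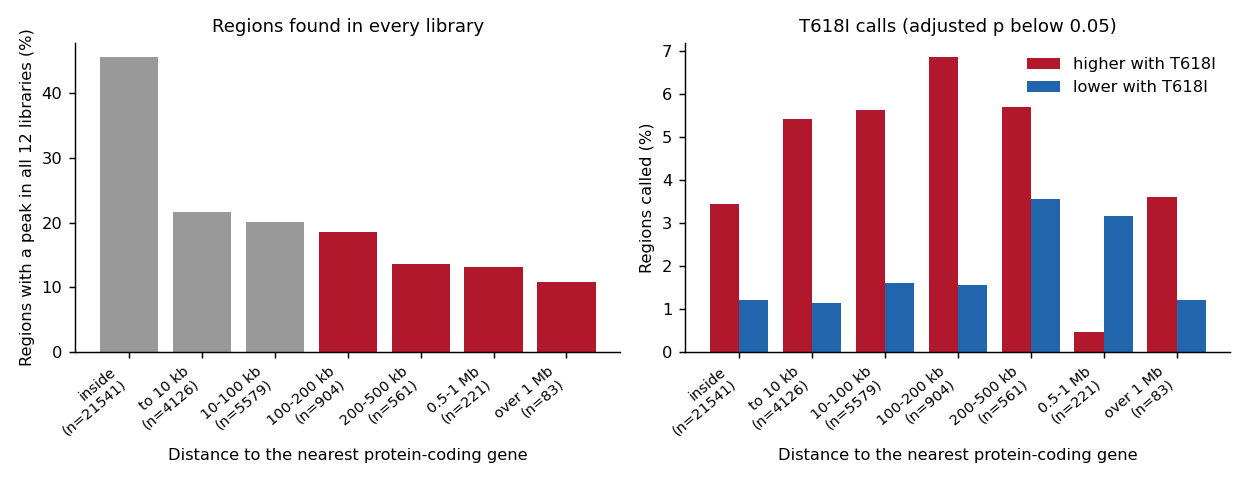
Left: percentage of regions with a peak in all 12 libraries by distance to the nearest protein-coding gene, desert classes in red. Right: percentage of regions higher (red) or lower (blue) with T618I by limma in the same classes; the share in all 12 libraries is 45.5% inside genes and 10.8% beyond 1 Mb.

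The share of desert regions among all narrow regions with a peak was compared between groups. In the lists as deposited it was 4.09, 4.69 and 4.09% in the sgB2/T618I libraries and 4.20, 4.01 and 4.33% in the sgNT/T618I libraries. It was 3.97, 4.42 and 4.21% in the sgB2/Empty libraries and 3.48, 4.04 and 4.26% in the sgNT/Empty libraries. The groups overlapped. T618I libraries averaged 4.24 ± 0.25% and Empty libraries 4.06 ± 0.325% (SD, n = 6 each; exact permutation test within guides, two-sided p = 0.325, adjusted p = 0.525 over 6 library tests). The sgB2 libraries averaged 4.25 ± 0.267% and sgNT libraries 4.05 ± 0.305% (exact p = 0.295, adjusted p = 0.525). The lowest value belongs to the shortest list, sgNT/Empty replicate 1.

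When every list was limited to its 18484 strongest peaks, the groups separated, and the T618I difference changed sign. On regions and members formed again from these lists (989 desert regions), the share was 3.41, 3.58 and 3.42% in the sgB2/T618I libraries and 3.19, 3.29 and 3.21% in the sgNT/T618I libraries. It was 3.68, 3.82 and 3.71% in the sgB2/Empty libraries and 3.32, 3.56 and 3.38% in the sgNT/Empty libraries. T618I libraries were below Empty libraries of the same guide without overlap, and sgB2 libraries were above sgNT libraries of the same vector without overlap. The T618I average was 3.35 ± 0.151% against 3.58 ± 0.195% in Empty libraries, a difference of −0.226 points. The sgB2 average was 3.60 ± 0.164% against 3.32 ± 0.134% in sgNT libraries, a difference of 0.279 points (SD, n = 6 each; exact permutation p = 0.005 for each factor, the smallest possible, adjusted p = 0.0075 over 6 tests). The direction of the T618I difference in share therefore depends on whether the weaker peaks of the longer lists are counted.

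**Figure D3:**
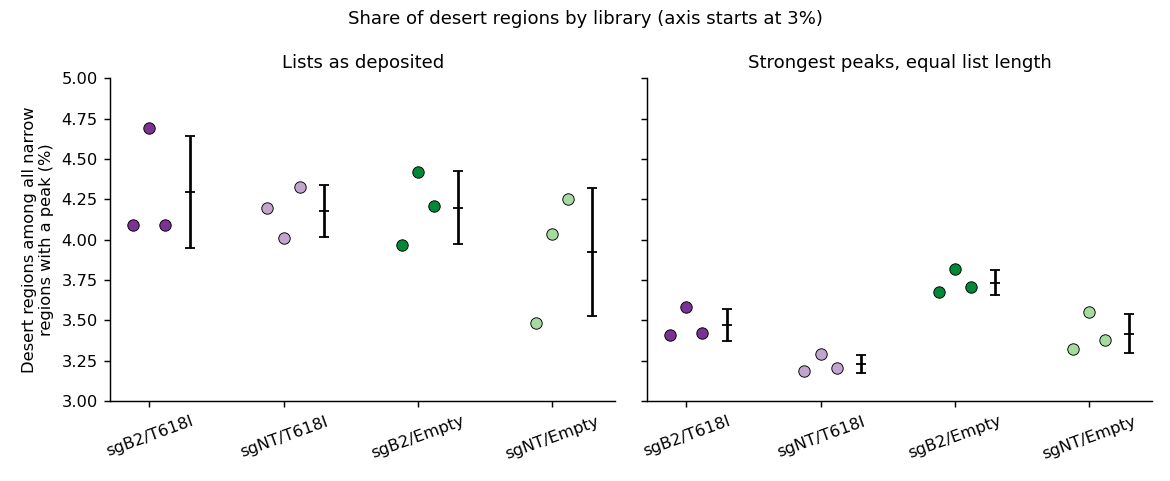
Share of desert regions among all narrow regions with a peak, by library (points) and group, with the mean and SD of 3 libraries (n = 3), in the lists as deposited (left) and in lists of equal length (right); the vertical axis starts at 3%. At equal length T618I averages 3.35% and Empty 3.58%, and sgB2 averages 3.60% and sgNT 3.32%.

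A similar result was seen for the percentage of desert regions with a peak minus that of the other regions. In the deposited lists this gap averaged −13.5 ± 2.25 points in sgB2 libraries and −17.1 ± 1.18 points in sgNT libraries, a difference of 3.58 points (exact permutation p = 0.01, adjusted p = 0.06, n = 6 each). It did not differ detectably between T618I libraries (−15.2 ± 2.73) and Empty libraries (−15.4 ± 2.59; exact p = 0.86). At equal list length the T618I difference was −4.17 points and the sgB2 difference 4.98 points (exact p = 0.005 each, adjusted p = 0.0075). The sgB2 difference passed no threshold with a limit of 50 kb from genes (2.37 points, exact p = 0.075) or with a stricter peak threshold (2.17 points, exact p = 0.32). The gap in rank did not pass for either factor (T618I difference −1.12, exact p = 0.35; sgB2 difference 0.286, exact p = 0.83).

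Single regions were tested on the length covered by peaks, scaled to an equal total in each library and fitted with limma to all 37113 regions as log2(bp + 200), so that changes of small regions are understated. T618I raised 98 desert regions (5.54%, against 4.11% of all regions tested) and lowered 42 (2.37%, against 1.32%) at an adjusted p below 0.05. The 98 lay in 71 gaps between genes, with log2 changes of 0.54 to 2.57, and the 42 in 40 gaps, with changes between −1.90 and −0.57. Both shares lie above the background, and that difference was not tested. The higher share was not particular to deserts. It was 3.44% inside gene spans, 5.43% up to 10 kb from a gene and 5.63% at 10 to 100 kb. The lower share was 1.20%, 1.14% and 1.61% in the same classes. In bulk samples, fewer cells with an open region and less opening per cell cannot be told apart. Of the 98, 18 had a peak in all 6 T618I libraries and in no Empty library, and another 18 had peaks in 1 group only (12 in sgB2/T618I, 6 in sgNT/T618I). Of the 42, 4 had a peak in all 6 Empty libraries and in no T618I library, and 8 had peaks in 1 group only (7 in sgB2/Empty, 1 in sgNT/Empty). A region of the last kind met the limit of 2 libraries through that group alone. Its call describes that group and not T618I with both guides.

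The balance of higher and lower calls depended on list length and on 1 library. In lists of equal length 69 of 989 desert regions were higher with T618I and 71 lower (over all regions 5.87% and 4.24%). Without sgNT/Empty replicate 1, the shortest list, 108 desert regions were higher and 90 lower (over all regions 4.11% and 2.88%). Without scaling, which moved the median change of all regions to 0.14 against −0.03, 145 were higher and 33 lower (over all regions 6.14% and 0.849%). The median T618I change of all 1769 desert regions was 0.02, against −0.03 for the other regions.

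The largest T618I increases were in regions that were absent or nearly absent without the receptor mutant. The region with the largest change, chr19:35640066-35641236, lay between Kif20b, a kinesin of cell division, and Htr7, a serotonin receptor, 317.2 kb from Htr7. It was covered over 1136, 1144 and 1032 bp in the sgB2/T618I libraries and 1034, 1112 and 1039 bp in the sgNT/T618I libraries, against 0 bp in all 6 Empty libraries. The groups did not overlap, and the log2 change was 2.57 ± 0.14 (SE, limma adjusted p = 2.17e-06). Libraries without a peak all enter the fit at the same value, so groups of 0 bp add no spread to the SE. For this region, and for those below that are absent from whole groups, the SE and p-value can therefore be too small. Its peaks were wide and weak, at a mean percentile of 19.4 in the libraries that had them.

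The next region, chr16:24136122-24137547, lay 147.3 kb from Bcl6, a transcriptional repressor of germinal centre B cells, on the side of Lpp, a focal adhesion protein. Its peaks covered 1359, 966 and 799 bp in the sgB2/T618I libraries and 1090, 786 and 1426 bp in the sgNT/T618I libraries, and 0 bp in the Empty libraries. The groups did not overlap, and the change was 2.53 ± 0.18 (adjusted p = 1.6e-05). The same pattern was seen at chr13:45195643-45196682, between Dtnbp1, a subunit of a complex for lysosome-related organelles, and Mylip, a ubiquitin ligase for the LDL receptor. It had 974, 1007 and 990 bp in sgB2/T618I and 1000, 1016 and 1010 bp in sgNT/T618I, against 0, 0 and 197 bp in sgB2/Empty and 0 bp in sgNT/Empty (2.3 ± 0.19, adjusted p = 5.61e-05). All 6 T618I libraries were above every Empty library there.

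Between Eea1, an early endosome tether, and Btg1, which restrains proliferation, chr10:96337917-96338870 had 792, 894 and 858 bp in sgB2/T618I and 920, 798 and 920 bp in sgNT/T618I, against 0 bp in Empty (2.3 ± 0.15, adjusted p = 1.6e-05). Beside Cdkn2b, an inhibitor of cyclin-dependent kinases, chr4:89457927-89458908 had 849, 825 and 966 bp and 866, 797 and 774 bp in the same groups, against 0 bp in Empty (2.28 ± 0.16, adjusted p = 1.68e-05). The mean percentiles of the 2 regions were 37.1 and 22.5. These regions did not overlap between T618I and Empty libraries either, but at equal list length neither was called (0.77, adjusted p = 0.341, and 0.83, adjusted p = 0.206), and with stricter peaks the first was not called (1.16, adjusted p = 0.263). Near Trib2, a pseudokinase known to lower C/EBPα in leukaemia, chr12:16121743-16123043 had 1175, 1301 and 1185 bp in sgB2/T618I and 256, 1024 and 1082 bp in sgNT/T618I. There 1 of 6 Empty libraries had a peak, of 185 bp, and the groups did not overlap (2.22 ± 0.27, adjusted p = 0.000894, mean percentile 22.2).

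Of the regions with a peak in all 6 T618I libraries and in no Empty library, those with the highest rank were narrower. The first, chr10:96274025-96274310, lay in the same Eea1 to Btg1 gap and was covered over 199 to 286 bp in T618I libraries at a mean percentile of 65.5 (1.09 ± 0.19, adjusted p = 0.00615). Another, chr5:118404393-118404795, lay between Spring1 and Med13l, a Mediator subunit (339 to 386 bp, 1.41 ± 0.19, adjusted p = 0.00156). The third was chr10:17347815-17348193, 375.0 kb from Cited2, a coactivator needed by blood stem cells (204 to 379 bp, 1.27 ± 0.20, adjusted p = 0.00471). The last, chr12:25311605-25312179, lay 215.5 kb from Id2, an inhibitor of helix-loop-helix factors (240 to 575 bp; 1.40 ± 0.22, adjusted p = 0.00401). These 4 were found with both guides and in no library of either Empty group. The Id2 call was lost when a peak had to cover most of a region (1.02, adjusted p = 0.17).

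The largest T618I decreases were again at regions present with one vector and absent with the other. Between Slc7a11, a cystine transporter, and Noct, a nocturnin phosphatase, chr3:50848570-50849169 had 0 bp in all 6 T618I libraries. It had 325, 453 and 491 bp in sgB2/Empty and 511, 542 and 586 bp in sgNT/Empty (−1.90 ± 0.18, adjusted p = 0.000145). The same pattern of 6 libraries against 0 was seen at chr17:62104693-62105053 near Efna5, an ephrin (230 to 361 bp in Empty; −1.40 ± 0.19, adjusted p = 0.00173), and at chr6:31201526-31201947 in the lncRNA gene Lncpint (219 to 359 bp in Empty; −1.38 ± 0.21, adjusted p = 0.00313). With stricter peaks none of these 3 was called (adjusted p = 0.127, 0.14 and 0.147 in that order).

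The remaining region lost with both guides was chr11:10481101-10481789, between the transporter Abca13 and the secreted protein Vwc2. It had 171 to 689 bp in Empty libraries, at a mean percentile of 17.4 (−1.60 ± 0.20, adjusted p = 0.00113). The call was lost at equal list length (−0.43, adjusted p = 0.356) and where a peak had to cover most of a region (−0.87, adjusted p = 0.285). At another 2 regions, 5 of 6 Empty libraries had a peak and sgB2/Empty replicate 2 had none. The first, chr7:125138685-125139498, lay 229.4 kb from 4930571K23Rik and 739.7 kb from Hs3st4 (−1.87 ± 0.37, adjusted p = 0.0157, mean percentile 39.9). The second, chr6:44469140-44469744, lay near Cntnap2, a neuronal adhesion gene (−1.72 ± 0.35, adjusted p = 0.0166, mean percentile 14.3). Neither was called when the peak number of each library entered the fit (adjusted p = 0.0565 and 0.06). At chr17:82016426-82016907 near Slc8a1, the sodium-calcium exchanger, a peak of 183 bp was found in 1 of 6 T618I libraries and peaks of 222 to 482 bp in all Empty libraries, so the groups did not overlap (−1.39 ± 0.25, adjusted p = 0.00774).

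**Figure D4:**
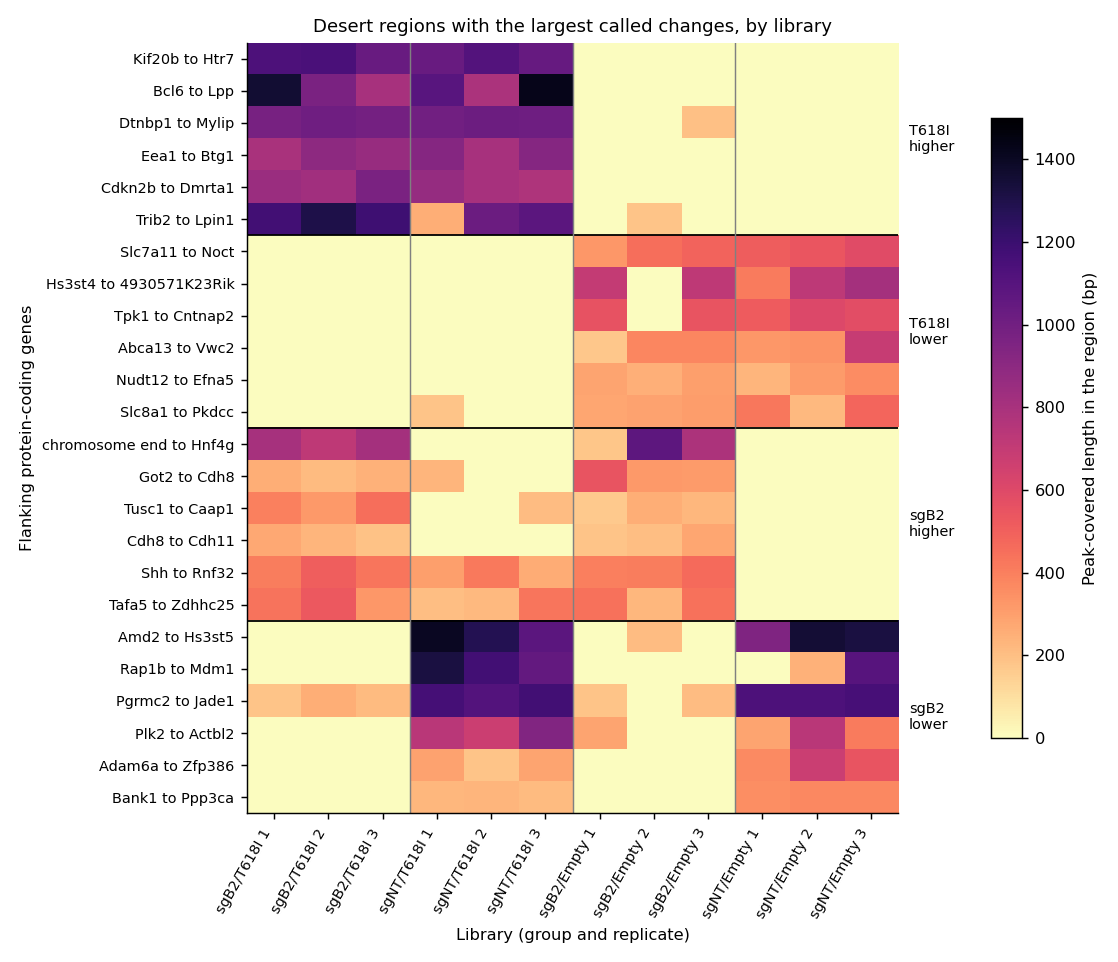
Peak-covered length (bp, colour) in each library (columns, by group and replicate) of the desert regions with the largest called changes (rows, named by flanking genes), in blocks for T618I higher, T618I lower, sgB2 higher and sgB2 lower. The top 6 regions are covered in all T618I libraries and in at most 1 Empty library each.

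Within a guide, fewer regions passed. In sgB2 cells T618I raised 65 desert regions (2.16% over all regions) and lowered 32 (0.771%), and in sgNT cells it raised 34 (1.47%) and lowered 6 (0.307%). Presence alone was counted as a peak in 3 of 3 libraries of one group against 0 of 3 of the other, a rule with no test, since an exact permutation test of 3 against 3 cannot go below p = 0.1. By this rule 89 desert regions were gained with T618I in sgB2 cells (3.24% over all regions) and 35 lost (0.911%). In sgNT cells the counts were 95 (3.24%) and 18 (0.55%). In lists of equal length the sgB2 counts were 39 of 989 gained (2.9% over all regions) and 56 lost (2.55%), so that losses exceeded gains, and the sgNT counts were 44 (3.06%) and 33 (1.89%). With stricter peaks the sgB2 counts were 28 of 809 gained (1.87%) and 27 lost (1.43%). Without sgNT/Empty replicate 1 the sgNT counts became 99 (3.38%) and 98 (3.38%), so the excess of gains with that guide rested on this library. With both guides, 18 regions were gained (0.684%) and 4 lost (0.0862%).

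Fewer desert regions passed for the Asxl1 guide. The sgB2 guide raised 12 (0.678%, against 0.375% of all regions) and lowered 12 (0.678%, against 0.725%), with absolute log2 changes of 0.54 to 2.59. Of the 12 raised, 4 had peaks in 1 group only, as had 1 of the 12 lowered. At equal list length 44 of 989 were higher (2.31% over all regions) and 24 lower (2.09%), and without scaling 23 of 1769 were higher (0.668%) and 27 lower (1.46%). Here 2 regions were gained with both vectors (0.0754% over all regions) and 4 lost (0.181%). Without sgNT/Empty replicate 1 the counts were 30 higher (0.959%) and 79 lower (3.55%), so both numbers depend on this library. By presence, in T618I cells 37 regions were gained (0.878%) and 38 lost (1.84%), and in Empty cells 23 gained (0.701%) and 15 lost (0.94%). Without sgNT/Empty replicate 1 the counts in Empty cells were 26 gained (0.763%) and 118 lost (5.68%), so their balance rested on this library. Within a vector limma called 21 higher (0.534%) and 22 lower (0.881%) in T618I cells, and 13 higher (0.358%) and 9 lower (0.509%) in Empty cells.

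The largest loss with sgB2 was at chr10:36044288-36045731, between Amd2, a polyamine enzyme, and Hs3st5, a heparan sulfate enzyme. It had 0 bp in the sgB2/T618I libraries and 0, 210 and 0 bp in the sgB2/Empty libraries, against 1406, 1282 and 1079 bp in sgNT/T618I and 949, 1351 and 1320 bp in sgNT/Empty. The groups did not overlap (−2.59 ± 0.19, adjusted p = 0.000141), but the change was −1.38 with adjusted p = 0.311 at equal list length. At chr3:41228626-41229818, 145.6 kb from Pgrmc2 and 325.9 kb from Jade1, a subunit of a histone acetyltransferase, sgB2 peaks were shorter, and absent in 1 library. They covered 183, 256 and 212 bp in sgB2/T618I and 187, 0 and 206 bp in sgB2/Empty, against 1165, 1113 and 1175 bp in sgNT/T618I and 1131, 1136 and 1160 bp in sgNT/Empty (−1.80 ± 0.20, adjusted p = 0.00129). With stricter peaks this change was −1.29 with adjusted p = 0.411.

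The gap beside Plk2, a polo-like kinase, held 2 regions lowered by sgB2. The first, chr13:110903129-110903553, holds the Gm38397 start printed above and had 0 bp in all 6 sgB2 libraries, against 419, 331 and 310 bp in sgNT/T618I and 238, 363 and 262 bp in sgNT/Empty (−1.33 ± 0.20, adjusted p = 0.00647). The other, chr13:110568410-110569371, holds the start of the lncRNA Gm32990 and had a peak in 1 sgB2 library, of 284 bp, and peaks of 287 to 939 bp in all sgNT libraries (−1.67 ± 0.29, adjusted p = 0.0149). It was not called at equal list length (−0.33, adjusted p = 0.743), where a peak had to cover most of a region (−1.42, adjusted p = 0.0844) or without sgNT/T618I replicate 3 (adjusted p = 0.0543). At chr10:117952146-117953466, beside the GTPase Rap1b, 0 bp were covered in all sgB2 libraries, but sgNT/Empty replicate 1 also had none (−1.90 ± 0.34, adjusted p = 0.0183, mean percentile 13.9). This call was lost when any one sgNT/T618I library was left out, with adjusted p up to 0.0615, and where a peak had to cover most of a region (−1.71, adjusted p = 0.0583).

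Complete losses with both vectors were also seen at chr3:136426650-136427041, 100.5 kb from Bank1, a B cell scaffold protein (−1.27 ± 0.20, adjusted p = 0.0086), and at chr15:63603230-63603601 in the Myc to Gsdmc gap (−1.25 ± 0.20, adjusted p = 0.0114). The other was chr12:114468925-114469602 in the immunoglobulin heavy chain locus (−1.48 ± 0.20, adjusted p = 0.00329; at equal list length −0.42, adjusted p = 0.47). Their sgNT libraries were covered over 215 to 374 bp, 239 to 372 bp and 185 to 678 bp, at mean percentiles of 40.3, 15.4 and 27.4.

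The largest sgB2 gain was at chr3:3213504-3214585, at the start of chromosome 3 and 293.4 kb from Hnf4g, a nuclear receptor. Its peaks were weak, at a mean percentile of 14.9 in the libraries that had them. It had 803, 715 and 810 bp in sgB2/T618I and 179, 1076 and 780 bp in sgB2/Empty, against 0 bp in all sgNT libraries (2.2 ± 0.26, adjusted p = 0.00162). The groups did not overlap. A second gain with both vectors, chr8:101162723-101162998, lay between the cadherins Cdh8 and Cdh11. It was covered over 183 to 276 bp in sgB2 libraries, at a mean percentile of 45.1, and in no sgNT library (1.15 ± 0.19, adjusted p = 0.0128). In the desert on the other side of Cdh8, chr8:98061797-98062384 was covered over 211 to 546 bp in sgB2 libraries and in 1 sgNT library, over 234 bp (1.27 ± 0.26, adjusted p = 0.0406), so the groups overlapped. With stricter peaks neither Cdh8 region was called (adjusted p = 0.0723 and 0.275), and where a peak had to cover most of a region the second was not (adjusted p = 0.0509).

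The other sgB2 gains had peaks in some sgNT libraries too. At chr5:28744970-28745478, in the desert beside the morphogen gene Shh, peaks were found in 9 libraries, all but those of sgNT/Empty. They covered 407, 509 and 429 bp in sgB2/T618I, 302, 417 and 258 bp in sgNT/T618I and 401, 408 and 465 bp in sgB2/Empty (1.12 ± 0.15, adjusted p = 0.00425). This averages a change of 1.84 ± 0.22 in Empty cells (limma adjusted p = 0.00311) and 0.41 ± 0.22 in T618I cells (adjusted p = 0.61). The difference between these changes did not pass (limma adjusted p = 0.172). A region in the gap beside Tafa5, chr15:88490239-88490799, had peaks in the same 9 libraries (1.08 ± 0.20, adjusted p = 0.0238). It lay 730.9 kb from Tafa5 and 109.5 kb from Zdhhc25. Its sgB2 change was 1.68 ± 0.29 in Empty cells (limma adjusted p = 0.0183) and 0.49 ± 0.29 in T618I cells (adjusted p = 0.688). The region chr4:93481210-93481685 near Tusc1 had peaks in 6 of 6 sgB2 and 1 of 6 sgNT libraries (1.21 ± 0.24, adjusted p = 0.0323). Between sgB2 and sgNT libraries with peaks the lengths overlapped at the Shh and Tafa5 regions. With stricter peaks neither of these was called (Shh 1.14, adjusted p = 0.234; Tafa5 0.41), and the Tafa5 call was also lost at equal list length (adjusted p = 0.062). When a peak had to cover most of a region, the Tafa5 and Tusc1 calls were lost (adjusted p = 0.27 and 0.0962). The call beside Got2 and Cdh8 was lost without any 1 library other than sgB2/T618I replicate 2, sgNT/T618I replicate 1 and sgNT/Empty replicate 1 (adjusted p up to 0.0893). The Tusc1 call was lost without any 1 library other than sgB2/T618I replicate 2, sgNT/T618I replicate 3 and sgNT/Empty replicate 1 (up to 0.0792). The Tafa5 call was lost without replicate 1 of sgB2/T618I, replicates 1 or 2 of sgNT/T618I, or replicates 1 or 3 of sgB2/Empty (up to 0.0671).

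Desert regions with peaks in only 1 group, and in all 3 libraries of it, numbered 20 for sgB2/T618I (0.393% over all regions), 15 for sgNT/T618I (0.445%), 8 for sgB2/Empty (0.119%) and 3 for sgNT/Empty (0.119%). The sgNT/Empty group holds the shortest list, and without its replicate 1 the counts in the same order were 21, 15, 8 and 32. In these counts sgNT/Empty was judged on 2 libraries and the other groups on 3, so the 32 follows a looser rule. Of the 20, 2 were neighbours between Il7, the lymphoid growth factor interleukin-7, and Stmn2, a neuronal tubulin-binding protein, 531.5 and 536.1 kb from Il7, and 2 lay between Runx1 and Setd4. Of the 15, the highest ranked was in the Zeb2 gap (mean percentile 63.0), and 1 lay 172.4 kb from Kit. Of the 8, 1 lay 662.9 kb from Bcl11b, the T cell factor, with 315, 329 and 345 bp. The regions missing from 1 group alone numbered 4 for sgB2/T618I (0.143% over all regions), 0 for sgNT/T618I (0.0243%), 2 for sgB2/Empty (0.137%) and 4 for sgNT/Empty (0.108%), and without sgNT/Empty replicate 1 they numbered 5, 1, 12 and 4 in the same order. Among the 4 missing from sgB2/T618I were 1 in the Jun to Fggy gap and 1 in the Cyria to Mycn gap. No count of this kind has a test, and those without sgNT/Empty replicate 1 have no share over all regions beside them.

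The difference between the T618I changes with the 2 guides passed for 0 desert regions by limma (0.0189% and 0.00808% of all regions passed, higher and lower). An unadjusted limma p below 0.05 was found for 132 desert regions (7.46%), against 5.70% of all regions. The smallest p was at the Gm31568 start, chr19:35151184-35152774, in the Kif20b to Htr7 gap (difference 1.98 ± 0.35, adjusted p = 0.109). This region had 1251, 1323 and 675 bp in sgB2/T618I, 1353, 1322 and 1508 bp in sgNT/T618I, 0 bp in all sgB2/Empty libraries and 254, 883 and 1230 bp in sgNT/Empty. Of 8 desert regions called for both factors it had the largest T618I change, and it was higher with T618I (1.61, adjusted p = 0.000353) and lower with sgB2 (−1.20, adjusted p = 0.00572). It was chosen for description after its values had been seen.

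The desert regions were unevenly spread. The 18 chromosomes hold 1259 gaps of more than 200 kb between protein-coding genes, and 534 of them held at least 1 desert region. There were 2.95 regions per Mb of territory more than 100 kb from genes (595.4 Mb in all). The 105 gaps with 5 or more regions held 954 of the 1757 regions between genes, while 50 of 225 gaps over 1 Mb long with such territory had none. T618I calls fell in 103 gaps, of which 17 had 2 or more higher regions, 2 had 2 or more lower regions and 8 had both. Counts of T618I calls in single gaps below stand against 4.11% higher and 1.32% lower over all regions. They rest on few regions each and have no test.

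The 6 gaps with the most regions were Adam6a to Zfp386 (66, the heavy chain locus), Nmbr to Cited2 (24), Id2 to Rnf144a (22), and Bcl2l11 to Spdye4c, Myc to Gsdmc and Runx1 to Setd4 (18 each). Several flank genes with a known part in blood cells. Bcl2l11 encodes the death protein Bim, Myc and Runx1 are transcription factors of progenitors, and Id2 blocks helix-loop-helix factors.

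In the Id2 gap 21 of 22 regions lay within 342.3 kb of Id2, and 3 had peaks in all 12 libraries. The member with the most libraries and highest rank, chr12:25388992-25389715, had 552, 522 and 541 bp in sgB2/T618I, 635, 710 and 563 bp in sgNT/T618I, 497, 462 and 436 bp in sgB2/Empty and 517, 497 and 513 bp in sgNT/Empty (T618I change −0.05 ± 0.14, adjusted p = 0.88). Another 4 regions of the gap were higher with T618I. The clearest, chr12:25267879-25268960, had 517 to 744 bp in 6 of 6 T618I libraries and 182 bp in 1 of 6 Empty libraries (1.69 ± 0.22, adjusted p = 0.00124). A constant region thus stood beside regions that differed.

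The Eea1 to Btg1 gap had the most T618I increases, 5 of 12 regions (4.11% over all regions), and none of its regions was found in all 12 libraries. The 5 were neighbours, between 228.5 and 328.4 kb from Eea1, and all had peaks in 6 of 6 T618I libraries. None of them had a peak in any sgB2/Empty library, whereas 3 of the 5 had peaks in 2 of 3 sgNT/Empty libraries, replicate 1 being the one without. For these 3 the changes were 1.12 ± 0.25, 1.28 ± 0.28 and 1.22 ± 0.32 (adjusted p = 0.0265, 0.0238 and 0.0455). This gap and the next were chosen for description after their values had been seen.

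In the Kif20b to Htr7 gap 3 of 11 regions were higher with T618I, including the start of Gm31568. The third, chr19:35761802-35762256, had 258 to 445 bp in T618I libraries and 0 bp in Empty libraries (1.31 ± 0.19, adjusted p = 0.00248). A region 202.2 kb from Kif20b, chr19:35177906-35178642, had peaks in all 12 libraries at a mean percentile of 91.6 and did not pass (−0.02 ± 0.11, adjusted p = 0.946).

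The Bcl6 to Lpp gap, which in human B cells is known to hold an enhancer cluster, had 12 regions, of which 4 were found in all 12 libraries, 3 were higher and 1 was lower with T618I. The constant member chr16:24193389-24194296, at the start of the lncRNA gene Gm31814, had 866, 877 and 695 bp in sgB2/T618I, 770, 870 and 796 bp in sgNT/T618I, 653, 691 and 860 bp in sgB2/Empty and 675, 709 and 789 bp in sgNT/Empty (−0.13 ± 0.11, adjusted p = 0.465). Beside the region already described, chr16:24151071-24152168 had 635 to 1032 bp in T618I libraries, 472, 428 and 504 bp in sgB2/Empty and 0, 307 and 0 bp in sgNT/Empty (0.96 ± 0.22, adjusted p = 0.0308). The lower region had peaks in the 3 sgB2/Empty libraries only (−0.64 ± 0.16, adjusted p = 0.0423). It met the limit of 2 libraries through that group alone, so this call shows no T618I decrease in sgNT cells.

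The Bcl2l11 gap was among the densest, with 78.7 regions per Mb and 6 of 18 in all 12 libraries. The Morrbid gene overlapped 9 of them, whose lncRNA is known to act on Bcl2l11 in myeloid cells. The region at the Morrbid start had 1313, 1704 and 1473 bp in sgB2/T618I and 1700, 1629 and 1716 bp in sgNT/T618I, against 257, 1237 and 1237 bp in sgB2/Empty and 1076, 744 and 1525 bp in sgNT/Empty. The groups overlapped, and the change did not pass (0.41, adjusted p = 0.321). A region inside the gene, chr2:128342162-128342691, did (284 to 423 bp in T618I libraries, 297 bp in 1 of 6 Empty libraries; 1.21 ± 0.25, adjusted p = 0.0167).

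In the Myc to Gsdmc gap 5 of the 18 regions lay in the lncRNA gene Pvt1, and 9 lay at 1506.9 kb or more from Myc, on the side of Gsdmc. The strongest, chr15:63647734-63648641, lay 1657.4 kb from Myc and had 526, 579 and 526 bp in sgB2/T618I, 896, 560 and 555 bp in sgNT/T618I, 506, 471 and 497 bp in sgB2/Empty and 515, 597 and 554 bp in sgNT/Empty (−0.10 ± 0.13, adjusted p = 0.685). T618I raised 1 region in Pvt1, chr15:62158047-62159240, with peaks in 6 of 6 T618I and 0 of 6 Empty libraries (1.41 ± 0.30, adjusted p = 0.0222), and 1 of the far regions, chr15:63616620-63617411, with peaks in 6 of 6 T618I and 2 of 6 Empty libraries (1.20 ± 0.29, adjusted p = 0.0338).

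Of the 18 regions between Runx1 and Setd4, 2 were in all 12 libraries and 9 in 2 libraries. The member in all 12 with the highest rank, chr16:93152166-93153371, had 572, 551 and 520 bp in sgB2/T618I and 1176, 577 and 430 bp in sgNT/T618I, against 522, 559 and 485 bp in sgB2/Empty and 530, 432 and 528 bp in sgNT/Empty (−0.05 ± 0.19, adjusted p = 0.903). Just before it, chr16:93146943-93147827 was covered in 5 of 6 T618I libraries and 0 of 6 Empty libraries (1.82 ± 0.35, adjusted p = 0.0135).

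**Figure D5:**
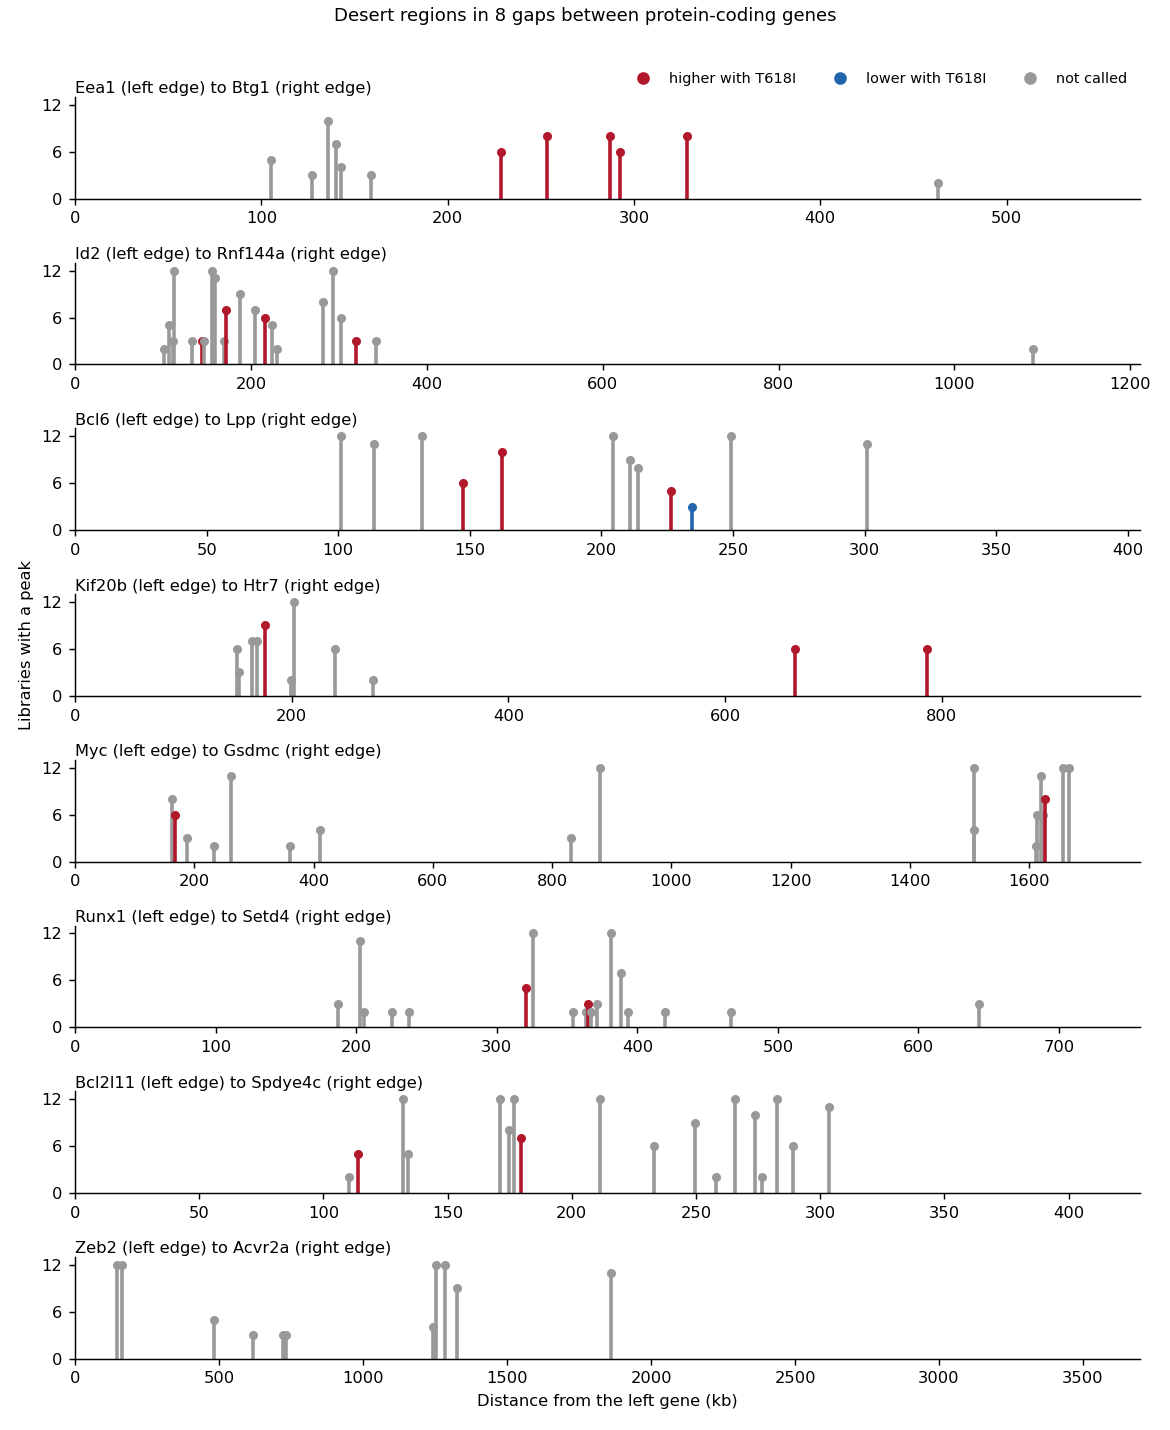
Position of the desert regions in 8 gaps as distance from the left gene (horizontal, kb; the axis spans the gap) and the number of libraries with a peak (vertical), coloured by the T618I call (red higher, blue lower, grey not called). The 5 red regions of the Eea1 to Btg1 gap are neighbours, and the Zeb2 to Acvr2a gap has no called region.

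By list, 22 of the 29 haematopoietic transcription factors beside a gap of more than 200 kb had a desert region in it, against 989 of 2145 genes (46.1%). The gaps beside them held 140 regions, of which 24 were in all 12 libraries, 13 (9.29%) were higher with T618I and 5 (3.57%) lower. The same shares over all 1757 regions between genes were 5.58% and 2.39%. The 13 lay beside Id2 (4), Bcl6 (3), Myc (2) and Runx1 (2), and 1 each beside Satb1 and Mycn. The 7 with no region were Egr2, Foxp1, Gata3, Lef1, Mecom, Nr4a3 and Runx2.

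Zeb2, a repressor needed for myeloid differentiation, had 11 regions in its gap, of which 4 were found in all 12 libraries and 0 were called. Over all regions T618I raised 4.11% and lowered 1.32%, so 0 of 11 is near the background. The strongest, chr2:46370779-46371507, lay 1253.3 kb from Zeb2 and had 503, 662 and 600 bp in sgB2/T618I, 570, 594 and 528 bp in sgNT/T618I, 425, 433 and 463 bp in sgB2/Empty and 397, 451 and 496 bp in sgNT/Empty. In bp the T618I libraries were all above the Empty libraries, but after scaling to equal covered length the change was 0.03 ± 0.11 (adjusted p = 0.886). Regions with the most libraries beside Satb1, Mef2c and Rarb were also found in all 12 libraries without a call, and so was 1 beside Maf, while another 12-library region beside Maf, chr8:115555384-115556057, was lower with T618I (−0.67 ± 0.13, adjusted p = 0.0157). A region 114.2 kb from Cebpb, which drives emergency granulopoiesis, had 983, 1289 and 1036 bp in sgB2/T618I and 1583, 1255 and 416 bp in sgNT/T618I, against 0, 556 and 297 bp in sgB2/Empty and 194, 952 and 361 bp in sgNT/Empty. The groups overlapped and it did not pass (1.09 ± 0.35, adjusted p = 0.105). In the gap between Irf8, which directs cells to monocytes, and Foxf1, the only region had peaks in 2 libraries. It lay 226.2 kb from Irf8 and 101.0 kb from Foxf1.

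Of 9 myeloid effector and signalling genes beside such a gap, 9 had a desert region, with 38 regions in all, of which 3 (7.89%) were higher with T618I and 0 lower, against 5.58% and 2.39% of all 1757 regions between genes. Both regions of the Dnajb6 to Il6 gap were among them. The one nearer to Il6, the gene of the cytokine interleukin-6, was chr5:29901445-29902270, 110.8 kb away. It had 347, 538 and 418 bp in sgB2/T618I and 494, 230 and 198 bp in sgNT/T618I, against 0 bp in all Empty libraries (1.40 ± 0.21, adjusted p = 0.00296). The other, chr5:29893705-29894328, had 248 to 624 bp in T618I libraries and 180 bp in 1 of 6 Empty libraries (1.21 ± 0.26, adjusted p = 0.0209). The third lay between Pdgfra and Kit, the receptor of stem cell factor, with peaks in sgNT/T618I libraries only. The 7 regions beside Dusp6, a phosphatase of ERK kinases, included 4 in all 12 libraries and 0 called, which is near the shares over all regions (T618I 4.11% higher and 1.32% lower).

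In the heavy chain locus (Igh), 67 desert regions had a median of 9 libraries, and 22 were in all 12. The number with a peak was 42, 46 and 35 in sgB2/T618I, 53, 47 and 53 in sgNT/T618I, 31, 38 and 43 in sgB2/Empty and 34, 55 and 59 in sgNT/Empty. The sgB2 libraries had 31 to 46 and the sgNT libraries 34 to 59, so they overlapped. By limma T618I changed 0 of the 67 (over all regions 4.11% were higher and 1.32% lower). The sgB2 guide lowered the 1 named above (0.725% over all regions). At these shares few calls would fall in 67 regions, so the counts are not read as a trait of the locus. The T cell receptor alpha locus held 13 desert regions, the beta locus 3 and the kappa light chain locus 1. Variable segments resemble each other, and how the submitters treated reads that fit several places is not given in the sources used here.

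Of the 1769 regions, 394 (22.3%) overlapped a lncRNA gene. Of the 44 at a noncoding start, 17 (38.6%) were found in all 12 libraries, against 15.9% of all desert regions. T618I raised 3 of the 44 and lowered 0 (over all regions 4.11% and 1.32%), and sgB2 raised 1 and lowered 3 (0.375% and 0.725%). The 3 raised were the starts of Gm31568, of Gm19585 beside Satb1 (220 to 415 bp in T618I libraries, 231 bp in 1 of 6 Empty libraries; 1.01, adjusted p = 0.0459) and of Gm34418, with peaks in sgB2/T618I libraries only. At the start of Gm45805, between Irf2bp2, a transcriptional corepressor, and Tomm20, a mitochondrial import receptor, all libraries were open. The region had 404, 452 and 435 bp in sgB2/T618I, 497, 806 and 630 bp in sgNT/T618I, 361, 412 and 400 bp in sgB2/Empty and 421, 590 and 467 bp in sgNT/Empty (T618I −0.04 ± 0.13, adjusted p = 0.881; sgB2 −0.19 ± 0.13, adjusted p = 0.552), at a mean percentile of 95.0.

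Of the 8 highest ranked regions found in every library, 0 were called for either factor. Over all regions T618I raised 4.11% and lowered 1.32%, and sgB2 raised 0.375% and lowered 0.725%. The first 2, chr4:122122851-122123074 and chr4:122455216-122455439, were covered over 224 bp in each of the 12 libraries, with mean percentiles of 99.98 each. The sequences of these regions were not analysed here. The next was chr15:68362564-68363882 near Zfat, an immune zinc finger gene, with 818 to 963 bp in sgB2/T618I and 843 to 1319 bp in sgNT/T618I, against 662 to 865 bp in sgB2/Empty and 876 to 1045 bp in sgNT/Empty. Others were chr3:21735747-21736137 near Tbl1xr1, chr19:19750094-19751043 between Rorb and Anxa1, and chr7:71463552-71464120 near Mctp2, with mean percentiles of 94.7, 94.1 and 93.1.

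The most isolated region, chr14:82359334-82359579, lay 2084 kb from Pcdh17, a protocadherin of neurons, and 2336 kb from Olfm4, a granule protein of neutrophils. It had 175, 234 and 190 bp in the sgB2/Empty libraries and 0 bp in the other 9 libraries. It met the limit of 2 libraries through that group alone. Its averaged T618I and sgB2 changes, −0.57 ± 0.15 and 0.57 ± 0.15, are therefore the same difference with opposite signs. They show no change with T618I in sgNT cells. In contrast chr2:46977240-46978255, 1836 kb from Acvr2a, was found in 11 of 12 libraries, with 885, 936 and 937 bp in sgB2/T618I, 862, 930 and 212 bp in sgNT/T618I, 939, 909 and 946 bp in sgB2/Empty and 862, 862 and 0 bp in sgNT/Empty. It did not pass for either factor. The next, chr5:59996470-59997055, lay 1812 kb from G6pd2 and was covered in 0, 2, 2 and 3 libraries of sgB2/T618I, sgNT/T618I, sgB2/Empty and sgNT/Empty.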

How the data were processed

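ATAC-seq peak lists of 12 libraries were used. The submitters' processing notes name BWA 0.7.17, SAMtools 1.9, bedtools 2.30, MACS2 2.2.7.1, deepTools 3.5 and the build mm10. The authors' deposited broad peak lists give a −log10 p-value and a −log10 q-value for every peak, which served here to order or filter the peaks of the same list. Sequencing depth is unknown, so a missing peak may lie just under the caller's limit. Distances were measured to 21523 protein-coding genes of the RefSeq table for GRCm38.p6. Peak-covered bp were scaled to equal totals, and log2(bp + 200) was fitted with limma 3.58.1 (R 4.3.3, trend, 4 group means, 8 residual degrees of freedom) and adjusted by Benjamini-Hochberg over 37113 regions, with 0.05 as threshold. Library values were compared by exact permutation within the other factor (400 arrangements, smallest two-sided p 0.005) or by sign flips (4096 arrangements). On simulated data for T618I the fit called 100 of 100 regions planted in T618I libraries only and 67 of 100 widened ones. It also called 11 of 100 planted in 5 of 6 against 1 of 6 libraries, and 33 of 33968 others. The 33 were more than 0.05 of these calls. Presence was drawn independently for each library and the lengths were not scaled, so the simulation does not test the scaled fit used here. Named regions were the highest ranked constant ones, the largest calls (1 per gap), the highest ranked gains and losses, the densest gaps, the most isolated regions and 1 region per listed blood factor. The regions, lists and rules were chosen with earlier results of these data known. Alternatives comprised other distance, library, peak and overlap limits, equal-length lists, other pseudocounts and scaling, covariates and leaving out each library. Leaving out antigen receptor loci, and the alternatives for the presence gap between groups, were added after seeing the data. One marker gene is not reported here.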

Additional observations from a re-analysis of the deposited data

How the results depend on the processing

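The lower presence and rank of desert regions kept their direction and call under the 19 alternatives run for each (presence −18.4 to −13.8 points, rank −18.3 to −14.3). No named region reversed; calls were lost in 9 cases under stricter peaks, 7 at equal list length and 7 when a peak had to cover most of a region. The T618I share difference was −0.226 and the presence gap difference −4.17 at equal length (both reversed), and the sgB2 share difference 0.279. The sgB2 presence gap was 2.37 at 50 kb and 2.17 under stricter peaks. The percentage of desert regions called for T618I (7.91) became 12.5 among regions in 3 or more libraries, 14.2 at equal length, 4.41 with peak number as covariate and 4.13 with a replicate block. For sgB2 (1.36) it became 3.24, 3.09 (stricter), 6.88 (equal length), 2.07 (peaks over most of a region), 2.83 (no scaling) and 0.735 (replicate block). For the interaction (0) it became 0.0328 (50 kb), 0.0721 (3 libraries), 1.11 (stricter), 3.64 (equal length), 0.564 (peaks over most of a region), 0.113 (no scaling) and 0.0565 with a pseudocount of 50 or the covariate. Gained or lost regions for sgB2 in Empty cells were 4.95 at equal length. The causes were not tested. Leaving out 1 library gave 3.84 to 11.2 for T618I, 0.961 to 6.16 for sgB2 and 0 to 1.64 for the interaction. Gained or lost percentages ran from 7.01 to 11.3 for T618I in sgB2 cells, 6.39 to 11.1 in sgNT cells, and for sgB2 2.15 to 8.14 in Empty and 4.24 to 7.74 in T618I cells. Leaving out sgNT/Empty replicate 1 gave 11.2 (T618I), 6.16 (sgB2), 1.64, 11.1 and 8.14. Shifts over 1.5 times also came without replicate 2 or 3 of sgNT/Empty (T618I 3.84 and 4.75; sgB2 in Empty 3.34 for replicate 3), each sgB2/Empty replicate (sgB2 in Empty 4.75 and 4.01 for replicates 1 and 2; T618I 4.47 and 4.41 for 2 and 3), each sgNT/T618I replicate (T618I 4.47 and 4.41 for 1 and 3; sgB2 in T618I 6.56 and 6.50 for 1 and 2) and each sgB2/T618I replicate (sgB2 in T618I 6.39, 7.74 and 7.12; T618I in sgB2 11.3 and sgB2 2.15 for 3). Replicate numbers did not pair the libraries: same-number correlations of deviations ran from -0.0985 to 0.125. T618I calls split into 36 higher and 28 lower of 865 at 200 kb, where the fit was the same (4.11% and 1.32% over all regions). Under stricter peaks the split was 43 and 32 of 809. At equal length the shares over all regions rose too, to 5.87% and 4.24% for T618I and 2.31% and 2.09% for sgB2. Where no share over all regions is printed, a shift in these percentages cannot be read as particular to deserts. Depth is unknown and was no term of any fit.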

Other observations

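The deserts beside 2 other lists of genes were counted without a test of the difference between lists. Of 61 adhesion and synapse genes beside a gap of more than 200 kb, 41 had a desert region, with 134 regions, of which 15 were in all 12 libraries, 1 (0.746%) was higher with T618I and 3 (2.24%) were lower. Of 48 developmental transcription factors, 23 had one, with 56 regions, of which 3 were in all 12 libraries, 4 (7.14%) were higher and 3 (5.36%) lower. Of all 1757 regions between genes, 281 were in all 12 libraries, 5.58% were higher and 2.39% lower. By chromosome, regions per Mb of territory ranged between 1.66 on chromosome 18 and 5.31 on chromosome 10. Chromosome 12 held 200 regions, 133 of them outside the heavy chain locus.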
